A study of Mus musculus with 2 samples.

Results

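Cytochrome P450 genes outside steroid synthesis were described in the open chromatin of the aged mouse ovary. Members were all protein-coding genes of GENCODE M21 whose symbol is Cyp followed by a digit, without 5 genes that make or clear steroids, sterols and retinoic acid in the gonad (Cyp11a1, Cyp17a1, Cyp19a1, Cyp26b1 and Cyp51). This gave 95 genes on 14 chromosomes, among 21728 coding genes of the autosomes and the X chromosome. Each gene was scored by the peaks within 500 bp of any of its annotated transcription starts, and by the peaks in its gene body with 10 kb on either side.

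Open chromatin was mapped by DNase-seq, which sequences the ends left where the enzyme DNase I cuts accessible DNA in nuclei. The tissue was whole ovary of adult female B6CASTF1/J mice, hybrids of C57BL/6 and CAST, aged 18 to 20 months. There was 1 group with 2 libraries, called here library 1 and library 2 after their biological replicate numbers. The labels list separate tissue samples under 1 donor entry and do not say whether 1 animal or several gave them, so the spread between the libraries may be technical. No other age, treatment or tissue belonged to the series, so no test between groups was possible and all values below are descriptions.

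P450 enzymes are heme proteins that add oxygen to small molecules, using electrons passed on by a reductase or a ferredoxin. Families CYP1 to CYP4 handle drugs, plant and combustion compounds, fatty acids and eicosanoids, mostly in the liver, and many of their genes sit in tandem clusters that differ between rodents and humans. Other members have a single endogenous substrate such as vitamin D, retinoic acid, a bile acid precursor or brain cholesterol. A DNase peak at a start shows that the promoter is accessible in some cells of the tissue, which is not the same as transcription.

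The depth of the libraries is unknown, since only peak lists, footprints and false discovery rates were used. The longer peak lists held 95898 peaks in library 1 and 83982 in library 2. Peak signal is the authors' own value, scaled by them for depth, with no unit. Markers of ovarian cells were open: 3 of 3 granulosa genes, 3 of 3 theca and luteal genes and 2 of 2 stromal genes had a start peak in both libraries. Of the 3 oocyte genes only Dazl had one, and of the 5 hepatocyte genes (Alb, Apoa1, Ttr, Serpina1a and Hnf4a) none had a peak at a start in either library. Over all genes the share with a start peak in both libraries was 62.3%, and it differed by CpG content, as given below. Foxl2, Hsd17b7 and Dazl have CpG-rich starts, while the other ovarian markers and all 5 hepatocyte genes have CpG-poor ones. The marker counts were not compared within CpG classes.

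Most P450 genes had no listed peak at a start in this tissue, which is called closed below; a start with a peak in both libraries is called open. A start peak was listed in both libraries at 24 of 95 members, 25.3%, beside 62.3% of all genes. A further 5 members had one in a single library, and 66 had none in either. At the starts of members without a peak in a library, no base had a false discovery rate under 0.05 in that library. Members with such a base numbered 25 in library 1 and 28 in library 2, the same as members with a start peak. The rates and the peaks may come from the same calling, so this was not taken as a separate readout. In bulk tissue, a start that is open in few cells and a start that is weakly open in many cells cannot be told apart.

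Start sequence differed between the members and other genes. Over all genes, a start peak went with CpG content: 35.7% of genes with a CpG ratio (observed over expected CpG in the kilobase around the 5′ end) under 0.6 had a start peak in both libraries, and 93.0% of genes at or above it. Among the P450 genes 87 of 95 lay under 0.6, with a median ratio over all members of 0.14 beside 0.56 for all genes. Of these 87 CpG-poor members 17 were open in both libraries, 19.5%. Most members lie far below the limit of 0.6, so the 35.7% is not matched to their CpG content. Of all genes with a ratio under 0.4, 22.5% were open. Of the 8 CpG-rich members 7 were open, all but Cyp26a1, a retinoic acid hydroxylase with a CpG ratio of 0.73.

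Near-identical copies are the second feature of these starts. A 36-base word at a start that occurs again in the genome can leave reads without a unique position, and the share of such words had a median of 5.91% in members and 0.836% in all genes. In 10 members over 50% of the words were repeated, and 0 of these were open in both libraries. Among all genes 1250 had such starts, of which 6.88% were open. The 10 were Cyp2a4, Cyp2a5, Cyp2b9, Cyp2b13, Cyp2c40, Cyp2c69, Cyp3a41a, Cyp3a41b, Cyp4a12a and Cyp4a12b, of which Cyp2a5 had a weak peak in 1 library; the lack of peaks at these starts is uncertain. Of the 46 members that were CpG-poor with at most 10% repeated words, 14 were open, 30.4%, beside 43.5% of the 8741 genes of that kind. These genes were not matched further to the low CpG ratios of the members. How mapping treated such words was not tested.

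**Figure D1:**
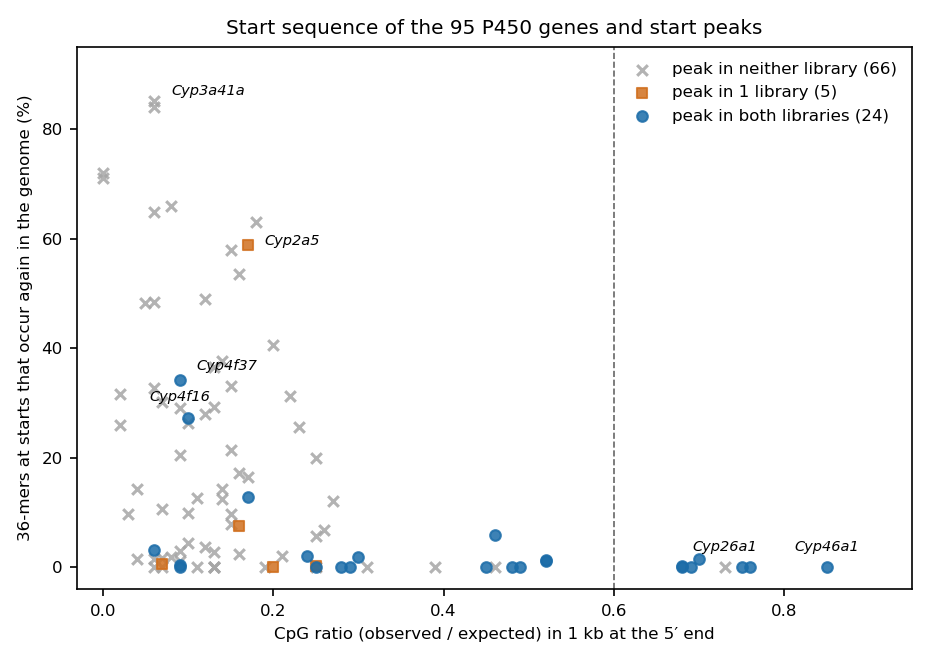
Each point is 1 of the 95 P450 genes, placed by the CpG ratio at its 5′ end (no unit) and by the percentage of 36-base words at its starts that recur in the genome. Circles are the 24 genes with a start peak in both libraries, squares the 5 with one in 1 library and crosses the 66 with none; the dashed line marks the ratio of 0.6, and no gene above 50% repeated words has a circle.

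The strongest P450 start belonged to Cyp46a1, the cholesterol 24-hydroxylase known for cholesterol turnover in neurons. Its start signal was 15.3 in library 1 and 18.0 in library 2 (mean 16.6 ± 1.90, SD, n = 2), at percentiles 99.4 and 97.4 of all open starts. The promoter is CpG-rich, with a ratio of 0.85. Its peak lay upstream of the annotated 5′ end, and no other gene's start was within reach of it. Most of it is printed here with its footprints, short stretches protected from DNase I within a peak, because it was the strongest member. The run covers bases -340 to -41 relative to the 5′ end on GRCm38 (mm10), outside annotated exons, and capitals mark the 145 bases that lie in a footprint of both libraries.
Cyp46a1, chr12:108334041-108334340, plus strand: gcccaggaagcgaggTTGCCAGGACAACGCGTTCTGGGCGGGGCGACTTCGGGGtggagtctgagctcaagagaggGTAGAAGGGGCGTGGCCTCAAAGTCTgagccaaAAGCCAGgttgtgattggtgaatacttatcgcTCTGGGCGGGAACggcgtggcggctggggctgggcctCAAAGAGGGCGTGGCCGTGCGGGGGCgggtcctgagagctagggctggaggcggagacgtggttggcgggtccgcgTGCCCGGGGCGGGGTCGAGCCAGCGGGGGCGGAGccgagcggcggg
The stretch held 5 matches of GGGCGG, the GC box bound by Sp and Klf factors, and 4 matches of GCGTG, the core bound by the AHR-ARNT dimer, counted on both strands with overlaps allowed. GC boxes at -305, -196, -80 and -60 lay wholly inside footprints in both libraries, as did GCGTG at -255 and -154. In the 300 bp at the strongest start regions, GGGCGG was found in 15 of 24 members and in 71.2% of 13477 genes, and GCGTG in 10 of 24 members and in 56.1% of genes, so neither sequence is particular to this promoter.

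Cyp46a1 also had 3 shared regions away from starts. A region upstream, at -1.18 kb from the 5′ end, had a signal of 3.11 and 1.82, and regions 29.6 kb and 31.2 kb from the 5′ end, beyond the gene, had 3.18 and 1.14, and 1.38 and 1.45. All of these were weaker than the promoter in both libraries.

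Of 6 members that act on sterols and bile acids 4 had a start peak in both libraries, 66.7%, a share near the 62.3% of all genes, and the other 2 had one in 1 library. Cyp39a1, the oxysterol 7-alpha-hydroxylase, had 4.27 and 4.95. Its region also lay within 500 bp of the start of Slc25a27, a mitochondrial carrier, so the 2 promoters cannot be told apart; it was the only open member in that position, beside 18.3% of open genes. Cyp27a1, the mitochondrial sterol 27-hydroxylase, had 1.29 in both libraries, and Cyp7b1, which hydroxylates oxysterols and some steroids, had 0.571 and 0.438. The other 2, also enzymes of bile acid synthesis in the liver, had a peak in only 1 library. Cyp7a1, its rate-limiting enzyme, had a peak of 0.516 in library 2 alone, and Cyp8b1, the 12-alpha-hydroxylase, one of 0.635 in library 1 alone.

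Vitamin D enzymes were split. Cyp2r1, a vitamin D 25-hydroxylase, had 3.28 and 3.76, and Cyp24a1, the 24-hydroxylase that inactivates the hormone, had 1.84 and 1.87. The region of Cyp24a1 also lies in the body of another gene, Pfdn4, though not within 500 bp of a start of it. Cyp27b1, which makes the active hormone and is best known from the kidney, had no start peak in either library. Its window held 3 shared regions, 2 of them at the starts of other genes, Mettl1 with Eef1akmt3 and March9.

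Neither retinoic acid hydroxylase among the members, Cyp26a1 or Cyp26c1, had a start peak. The neighbours shared 1 weak region with 0.388 and 0.469, in an exon of Cyp26c1. The excluded paralog Cyp26b1 had 0.754 and 0.813 at its start. All 3 corticosteroid genes were closed, namely Cyp21a1, the 21-hydroxylase, and Cyp11b1 and Cyp11b2, the adrenal 11-beta-hydroxylase and aldosterone synthase, and their windows held no shared region. Their starts had 40.5%, 37.7% and 36.6% repeated words, and Cyp21a1 has 1 near-identical copy, in the pseudogene Cyp21a2-ps.

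CYP1 enzymes, the classical targets of the aryl hydrocarbon receptor, differed from each other. Cyp1b1 was open with 1.51 and 1.56. Cyp1a1 had no start peak, and Cyp1a2 had 1 of 0.578 in library 2 alone, at an internal annotated start. The receptor itself was open, as Ahr had 3.66 and 3.02, its partner Arnt 4.63 and 8.14, and its repressor Ahrr 1.42 and 1.10.

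At Cyp1b1 the strongest region was not the start. An upstream region centred at -0.730 kb from the 5′ end had a signal of 6.31 and 5.57, above the start region in both libraries, and it ranked first among the 56 shared regions away from coding starts in the P450 windows. It is printed in the direction of the gene, on GRCm38, from base -879 to -580, with the bases in footprints of both libraries in capitals.
Cyp1b1, chr17:79715641-79715940, minus strand: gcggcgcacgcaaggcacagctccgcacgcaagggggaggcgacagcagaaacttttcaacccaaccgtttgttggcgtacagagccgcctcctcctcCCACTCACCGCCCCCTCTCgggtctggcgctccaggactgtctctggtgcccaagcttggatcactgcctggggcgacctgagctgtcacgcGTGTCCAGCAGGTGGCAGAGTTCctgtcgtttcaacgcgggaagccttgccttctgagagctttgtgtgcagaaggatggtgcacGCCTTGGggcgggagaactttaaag
This region held 5 matches of GCGTG on both strands, 2 of GGGCGG and 1 of the core recognised by CTCF, the insulator protein. None of the 5 GCGTG matches lay wholly inside footprints of both libraries. The GC box at -774 and the CTCF core did. In the central 300 bp, GCGTG was present in 8 of the 56 regions of this kind, 14.3%, beside 22.7% of 45484 such regions of the whole genome. A match is only a description of letters, and binding was not measured.

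**Figure D2:**
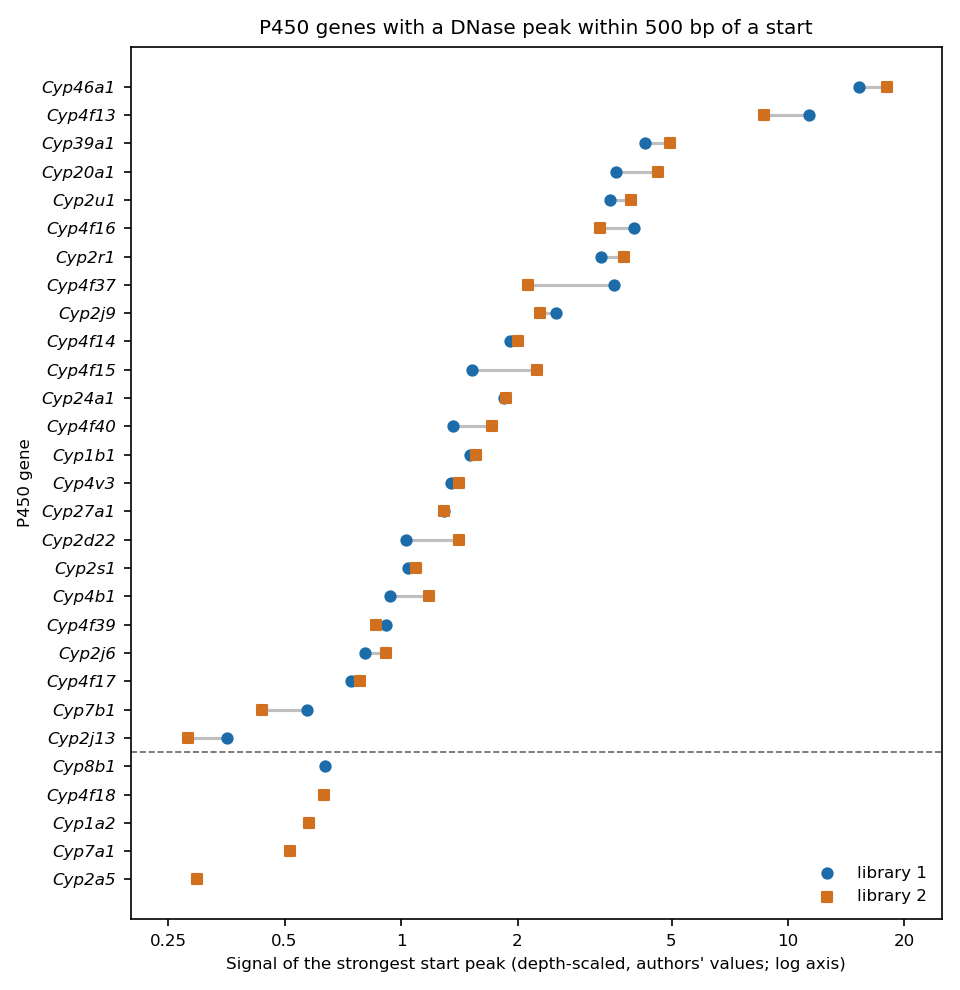
Signal of the strongest peak within 500 bp of a start (log axis, authors' depth-scaled values) in library 1 (circles) and library 2 (squares) for the P450 genes with such a peak; genes below the dashed line have a peak in 1 library only. Cyp46a1 and Cyp4f13 lie above all other genes, and none of the 24 genes open in both libraries differs by more than 2-fold between them.

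Sequences bound by factors of the ovary were looked for at the 24 open starts, in 300 bp centred on the strongest region and on both strands. AGATAA, bound by GATA factors, was present at 5 of 24 members and at 3.76% of 13477 open genes. The 5 were Cyp24a1, Cyp2j9, Cyp2r1, Cyp4f37 and Cyp4f40, and none of these matches touched a footprint in either library. The region searched at Cyp4f37 lies at an internal start, 13.9 kb from the 5′ end. Among open starts with a CpG ratio under 0.6, AGATAA was present at 3 of 17 members and at 5.67% of genes. CAAGGTCA, bound by NR5A receptors, was present at Cyp2u1 and Cyp4f37, beside 1.00% of genes. The match at Cyp4f37 lay inside a footprint in library 1 only, and that at Cyp2u1 touched none. Among CpG-poor open starts CAAGGTCA was present at 1 of 17 members and at 1.67% of genes. In the 56 regions away from starts in the P450 windows it was present in 3.57%, beside 7.53% of such regions of the genome. CCAAT was found at 14 of 24 members beside 38.7% of genes. Its matches touched a footprint only at Cyp2u1, in both libraries, and at Cyp2r1, in library 1. The ETS sequence CCGGAAGT and the cAMP response element TGACGTCA were found at 0 of 24, beside 8.53% and 3.76%. Among CpG-poor open starts, CCAAT was found at 10 of 17 members beside 36.5% of genes. The ETS sequence and the cAMP response element were found at 0 of 17 there, beside 4.95% and 2.58%.

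The drug- and fatty acid-metabolising clusters were mostly closed. No start peak in both libraries was found in Cyp2a (0 of 4), Cyp2b (0 of 5), Cyp2c (0 of 15), Cyp3a (0 of 9) or Cyp4a (0 of 8). This covers genes that define the liver's drug metabolism, such as Cyp3a11, Cyp3a13 and Cyp2c29, and the fatty acid hydroxylase Cyp4a14. The 9 Cyp3a windows held no shared region at all. The start of Cyp2c29 has 9 near-identical copies in the genome, while Cyp3a11, Cyp3a13 and Cyp4a14 had 1.92%, 1.55% and 0% repeated words. The median share of repeated words was 42.2% in Cyp2a, 12.1% in Cyp2b, 19.9% in Cyp2c, 29.0% in Cyp3a and 22.8% in Cyp4a. In the clusters with open starts it was 15.8% in Cyp2d, 0% in Cyp2j and 1.96% in Cyp4f. Cyp2e1, the ethanol-inducible enzyme, had no start peak and 1 shared region upstream of it, at -7.08 kb, with 1.05 and 0.914. Cyp2a5 had a peak of 0.297 in library 2 alone, and 58.8% of its words were repeated.

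Single genes of the other CYP2 subfamilies were open. Cyp2u1, a fatty acid hydroxylase with a CpG-rich start, had 3.47 and 3.92. Cyp2s1, found outside the liver in epithelia, had 1.04 and 1.09. Cyp2d22 was the only one of 8 Cyp2d genes that was open, with 1.03 and 1.41. The Cyp2j cluster belongs to a subfamily that includes arachidonic acid epoxygenases. Of its 8 genes 3 were open, 37.5%, beside 35.7% of all genes with a CpG ratio under 0.6 and 22.5% under 0.4. Cyp2j9 had 2.52 and 2.29, Cyp2j6 0.807 and 0.914, and Cyp2j13 0.355 and 0.281. Cyp2j13 was the weakest open member and the only one without a footprint in both libraries, whereas 95.8% of open genes had one.

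The remaining open genes outside Cyp4f were Cyp20a1, Cyp4v3 and Cyp4b1. Cyp20a1, an orphan P450 without a settled substrate, had 3.60 and 4.62, with 10 and 11 footprints in its start region. Cyp4v3, the mouse counterpart of the fatty acid hydroxylase CYP4V2, had 1.35 and 1.41. Cyp4b1, a lung-type fatty acid and drug hydroxylase, had 0.937 and 1.18, and 3 further shared regions between 0.743 and 1.25 in either library.

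**Figure D3:**
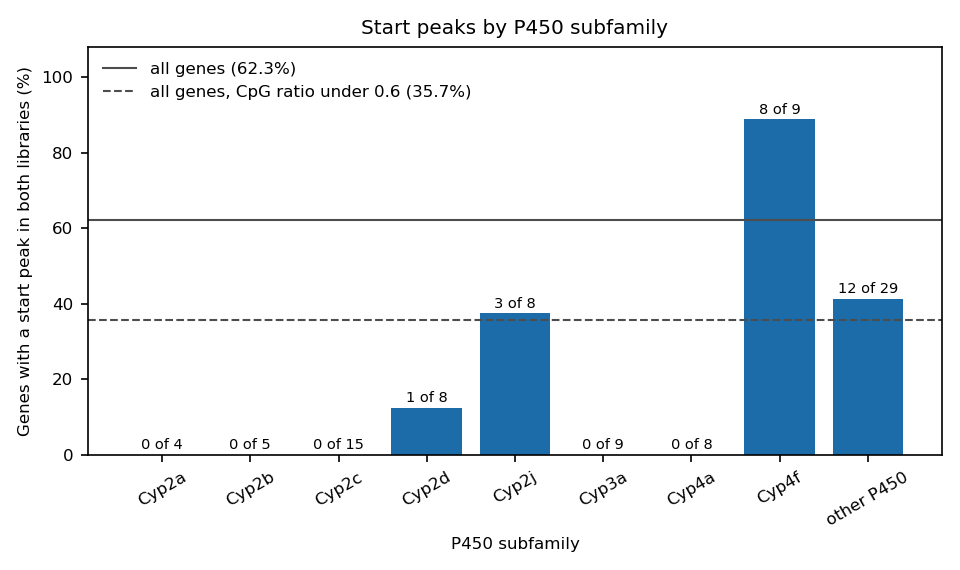
Percentage of genes with a start peak in both libraries (bars, axis from 0, counts above) in the 8 largest P450 subfamilies and in the other P450 genes; the lines mark 62.3% of all genes (solid) and 35.7% of genes with a CpG ratio under 0.6 (dashed). Cyp4f reaches 88.9%, while Cyp2a, Cyp2b, Cyp2c, Cyp3a and Cyp4a are at 0. Of all genes with a CpG ratio under 0.4, 22.5% were open, a share that is not drawn.

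The Cyp4f genes, omega-hydroxylases of leukotrienes and long fatty acids, differed from the other clusters in the share of open starts. Their median share of repeated words was also lower than in these clusters, except Cyp2j. A part of repeated words in the difference in open starts was not tested. Of 9 Cyp4f genes 8 had a start peak in both libraries, and these were the 8 on chromosome 17. The ninth, Cyp4f18, known from neutrophils, lies on chromosome 8 and had 0.633 in library 2 alone. Cyp4f13 was the second strongest P450 start, with 11.3 and 8.68 (percentiles 95.6 and 78.6). Cyp4f16 had 3.99 and 3.26, Cyp4f14 had 1.91 and 2.01, and Cyp4f15 had 1.53 and 2.24. Cyp4f40 had 1.36 and 1.72, and Cyp4f17 had 0.743 and 0.782. All 9 Cyp4f starts had a CpG ratio under 0.6. The ratios of Cyp4f13, Cyp4f14, Cyp4f15, Cyp4f16 and Cyp4f40 were 0.24, 0.09, 0.09, 0.10 and 0.06, that of Cyp4f37 was 0.09, and those of Cyp4f17 and Cyp4f39 were the highest with 0.45 and 0.46.

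At Cyp4f37 and Cyp4f39 the strongest start region lay at a short annotated transcript that begins far inside the gene. Cyp4f37 entered the count through it alone, and Cyp4f39 had a peak at its 5′ end as well. The strongest start region of Cyp4f37, with 3.55 and 2.13, lay 13.9 kb from its 5′ end, and at the 5′ end itself neither library had a peak. That of Cyp4f39, with 0.915 and 0.860, lay 39.8 kb inside, and its 5′ end had a weaker peak of 0.463 and 0.500. The 5′ end of Cyp4f37 is a near copy of that of Cyp4f16. The 180 bp of the open Cyp4f16 region aligned to it with 173 identical bases, 96.1%. Of the words at the starts of Cyp4f16 and Cyp4f37, 27.3% and 34.1% were repeated. A part of these repeats in the difference between the 2 genes was not tested.

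A short sequence is shared by 5 of the 8 open Cyp4f genes and shown here because it touched footprints in both libraries at all 5. It consists of TGGC, 4 bases of any kind and TGCCC, and it was picked out after the footprint sequences had been seen. Each line gives 30 bases of GRCm38 around the match, which is in capitals; Cyp4f14 is written on the strand opposite to the gene, the others on the gene's strand.
Cyp4f16, chr17:32536476-32536505, plus strand: acttgtttTGGCCTGATGCCCaggcaggga
Cyp4f40, chr17:32658932-32658961, plus strand: tcctttctTGGCCTCATGCCCaggccagga
Cyp4f15, chr17:32685528-32685557, plus strand: cctcctttTGGCCTTCTGCCCcagagggga
Cyp4f14, chr17:32917209-32917238, plus strand: tggtcagcTGGCCTTCTGCCCtggcctggc
Cyp4f13, chr17:32947461-32947490, minus strand: cactggcctTGGCTGCCTGCCCaggcttgg
Relative to the annotated 5′ end the match began at base -74 in Cyp4f16, -91 in Cyp4f15 and -79 in Cyp4f13, and at base 40 in Cyp4f40 and 113 in Cyp4f14. It lay wholly inside a footprint in both libraries at Cyp4f16, Cyp4f14 and Cyp4f13. Of the 300-bp start windows of 13477 open genes 98 held it, 0.727%. Among the 24 open members 6 held it, these 5 and Cyp4b1. The closed 5′ end of Cyp4f37 also held it within 500 bp, and those of Cyp4f39, Cyp4f17 and Cyp4f18 did not. Exact matches of the full core of NFI factors were found at 0 of 24 members and at 1.09% of open genes. That core also opens with TGGC. Less exact matches were not counted, so how close the shared stretch is to an NFI site was not tested.

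A second feature of the Cyp4f genes, counted with Cyp4f18 on chromosome 8, was a site at the 3′ end. Within the last 1.5 kb of the gene, 7 of 9 Cyp4f genes had a region shared by both libraries, beside 6.78% of all genes and 4 of the other 86 members (Cyp2f2, Cyp2j13, Cyp2s1 and Cyp2w1). The distance of 1.5 kb was chosen after the regions had been seen. All 7 overlapped an exon. Their signals were 2.90 and 2.33 at Cyp4f17, 2.94 and 1.88 at Cyp4f16, and 3.55 and 2.13 at Cyp4f37, where the site is the internal start region described above. They were 1.53 and 1.40 at Cyp4f13, 1.27 and 1.07 at Cyp4f18, and 0.937 and 0.430 at Cyp4f14. The internal start region of Cyp4f39 is the remaining one, and Cyp4f40 and Cyp4f15 had no such site. At Cyp4f17, Cyp4f18, Cyp4f37 and Cyp4f39 the 3′-end site was stronger in both libraries than what was listed at the 5′ end, where Cyp4f37 had no peak and Cyp4f18 one in library 2 alone. The site of Cyp4f18 also lies in the body of Zfp961.

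**Figure D4:**
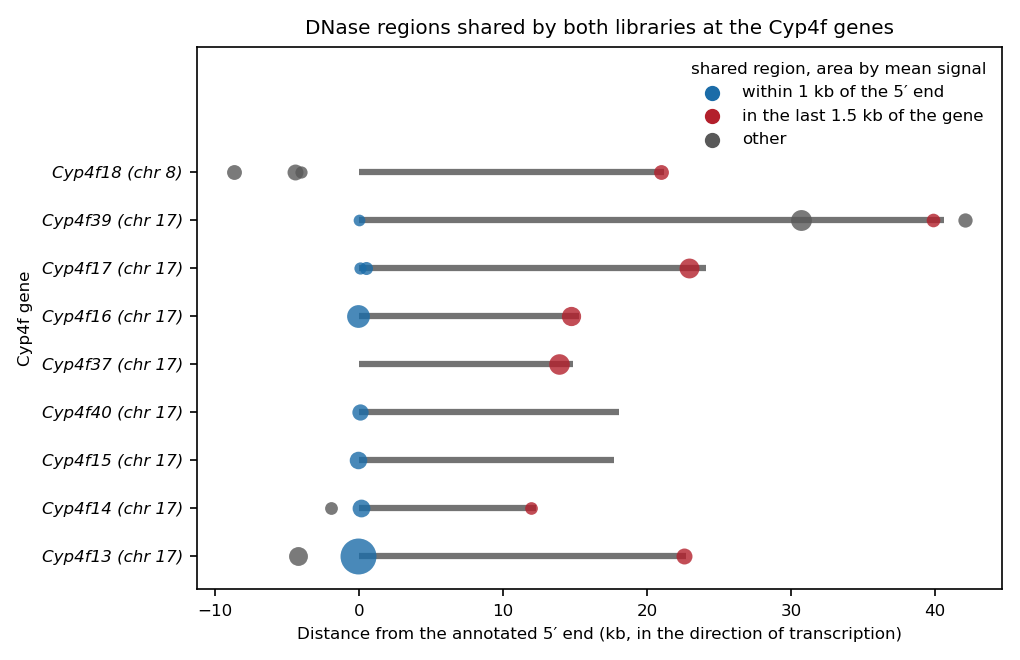
Regions shared by both libraries at the 9 Cyp4f genes, placed by distance from the annotated 5′ end in kb; grey bars are the gene bodies and the area of a point grows with the mean signal of both libraries. Points in red lie in the last 1.5 kb of the gene, in 7 of the 9 genes, and points in blue within 1 kb of the 5′ end.

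The core of the CTCF motif was found in 4 of these 7 sites, at Cyp4f17, Cyp4f16, Cyp4f37 and Cyp4f14. At the first 3 it lay wholly inside a footprint in both libraries, and at Cyp4f14 it touched one in library 1 only. The lines give 30 bases on GRCm38 with the core in capitals, all on the strand of the gene.
Cyp4f17, chr17:32528953-32528982, plus strand: cacccagagCCATCAGAGGGCgctgcagga
Cyp4f16, chr17:32551292-32551321, plus strand: cacccagagCCATCAGAGGGCgctgcagga
Cyp4f37, chr17:32635228-32635257, plus strand: cacagaacgCCAGCAGGGGGCgctagaggg
Cyp4f14, chr17:32905388-32905417, minus strand: taccgagagCCAGCAGGGGGCgctgtgaaa
The runs of Cyp4f17 and Cyp4f16 are the same in all 30 bases. The 3′-end sites of these genes aligned over 201 positions with 93.5% identity, with a longest identical run of 42 bases. Those of Cyp4f16 and Cyp4f37 shared a run of 51 bases, and those of Cyp4f18 and Cyp4f13 one of 40 bases. Runs of 36 bases or more occurred in these 3 pairs of sites and in no other pair, and whether reads of a paralog entered these signals was not tested. Among all 56 regions away from starts in the P450 windows 11 held the CTCF core, 19.6%, beside 12.1% of such regions of the genome.

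Regions away from starts were fewer near P450 genes than near other genes. At least 1 shared region of any kind lay in the gene body with 10 kb on either side at 47 of 95 members, 49.5%, beside 78.8% of all genes. A shared region more than 500 bp from every coding start was found at 33 members, 34.7%, beside 58.5% of all genes, although the members are not shorter, with a median length of 22.7 kb beside 17.4 kb. In all, the windows held 166 distinct regions, of which 95 were shared, 46 were in library 1 alone and 25 in library 2 alone. The 95 consist of 30 at P450 starts, 9 at starts of other genes and 56 away from coding starts.

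The 56 comprised 17 upstream of a member, 14 in introns, 12 in exons and 13 downstream. Their median signal was 1.02, beside 0.908 for the 45484 such regions of the genome, so the regions that did occur were of usual strength. Footprints in both libraries were present in 42 of the 56, and in 75 of all 95 shared regions, 78.9%, beside 77.4% of 64875 shared regions. By the mean of the ranks of signal in both libraries, the strongest after the Cyp1b1 region were in exons of Cyp4f39 (30.7 kb from the 5′ end, 3.58 and 2.31), Cyp4f17 (the 3′-end site above) and Cyp2s1 (14.6 kb, 2.13 and 2.81), followed by the upstream region of Cyp46a1. By mean signal, a region near Cyp2w1 with 4.20 and 1.19 would stand above the last 3 of these.

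The median number of shared regions away from starts was 0 per member, beside 1 for all genes. How many of all genes had 3 or more was not counted. Cyp39a1 and Cyp4f18 had 4 each, and Cyp1b1, Cyp2f2, Cyp2s1, Cyp2w1, Cyp46a1, Cyp4b1, Cyp4f13 and Cyp4f14 had 3 each. The windows of Cyp4f13 and Cyp4f14 overlap. Regions at -1.94 kb from the 5′ end of Cyp4f14 and 22.6 kb from that of Cyp4f13 were counted for both genes. Cyp4f18 thus had more regions away from starts than any open Cyp4f gene, upstream at -8.70, -4.47 and -4.01 kb and at the 3′ end, with signals between 0.495 and 1.53. Cyp2w1, an enzyme better known from tumours and the fetal gut, and Cyp2f2, the naphthalene-activating enzyme of lung club cells, had 3 regions each and no start peak. Of those of Cyp2w1, the regions at -8.41 kb and 11.7 kb lie in the bodies of other genes, Cox19 and 3110082I17Rik; 6 of the 56 regions lie in another gene's body. The region 11.7 kb from the 5′ end of Cyp2w1 differed most between the libraries among these, with 4.20 and 1.19.

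**Figure D5:**
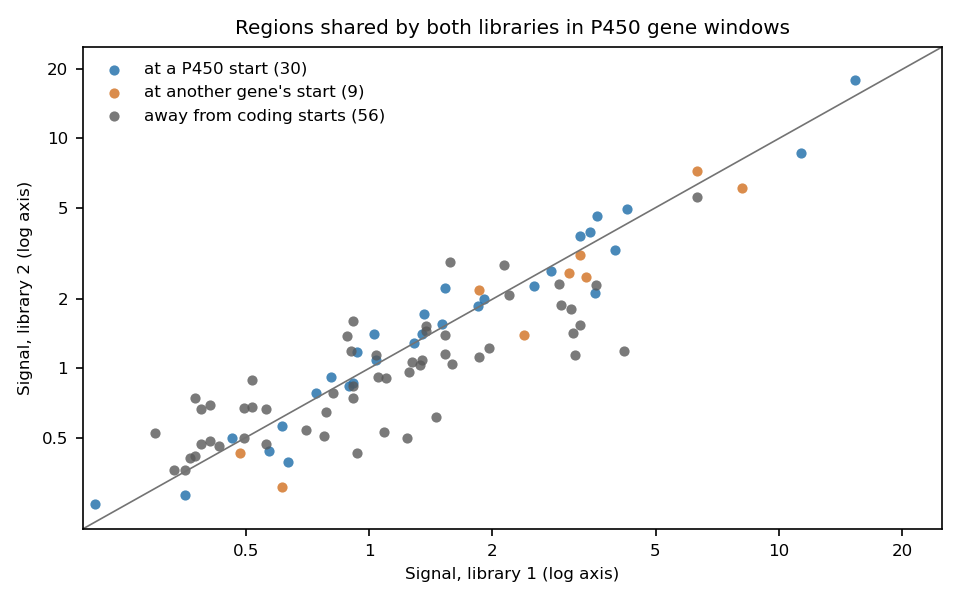
Signal in library 1 against library 2 (log axes, authors' depth-scaled values) for the 95 shared regions in P450 windows, with the line of equal signal. Grey points are the 56 regions away from coding starts; the one furthest below the line, at Cyp2w1, had 4.20 and 1.19.

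Partners of the P450 enzymes were compared with the shares of open starts, 62.3% of all genes, 35.7% of CpG-poor and 93.0% of CpG-rich genes. All 7 electron donors listed, most of them with CpG-rich starts, had a start peak in both libraries, among them Por, the reductase of microsomal P450s, with 12.8 and 20.9, and Fdxr, the reductase of the mitochondrial ones, with 12.3 and 15.9. Of 16 receptors that regulate P450 genes, or partners of these, most of them with CpG-poor starts, 13 were open, among them the repressor Ahrr. The exceptions were Nr1i2 and Nr1i3, the xenobiotic sensors PXR and CAR, and Hnf4a, a liver factor. The start regions of Rxrb and Nr1h3 also lay within 500 bp of the starts of Slc39a7 and Acp2. That of Fdx1l, an electron donor, lay within 500 bp of the start of Gm49373. Both epoxide hydrolases, with CpG-poor starts, were open, Ephx1 with 2.61 and 2.31 and Ephx2 with 3.12 and 4.35. The 5 P450 genes left out by the rule were all open, from Cyp26b1 with 0.754 and 0.813 to Cyp51 with 3.48 and 4.44. All of these but Cyp51 have CpG-poor starts. Of the P450 genes with other symbols, prostacyclin synthase Ptgis had 0.667 and 0.758, and thromboxane synthase Tbxas1 had 0.689 in library 1 alone.

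Open P450 starts were weaker than those of other genes. The median signal of the 24, as the mean of both libraries, was 1.70 beside 4.03 for all open genes. Within CpG classes the medians were 1.29 beside 2.21 under a ratio of 0.6, and 3.69 beside 4.94 at or above it. The ratio of library 2 to library 1 ran from 0.598 at Cyp4f37 to 1.47 at Cyp4f15, and all 24 were within 2-fold, beside 98.1% of all open genes.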

How the data were processed

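DNase-seq peaks, footprints and false discovery rates of 2 ovary libraries were used on mouse build mm10 (GRCm38). Per the description files deposited by the authors, every library was processed from its own alignments without pooling. Sources used here do not name aligner, callers, versions or the handling of CAST alleles. The signal of the deposited peak lists was scaled for depth by the authors. All values are whole steps, within 0.05 of a step, of 0.0108 in library 1 and 0.00782 in library 2, and a peak's strength is the authors' value. The deposited false discovery rate, a p-value or q-value per stretch of bases, is listed only under 0.05. Deposited footprints carry the constant label 0.01, and their positions alone were used.

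Genes came from GENCODE M21; 1 row per symbol was kept. Peaks overlapping by at least 1 bp were merged into regions, shared if both libraries had a peak. Repeated 36-base words were counted on the reference chromosomes, and copies of 5′ windows were found with BLAST 2.17.0 (95% identity over 90% of the window). Python 3.11.15, NumPy 2.4.6, pandas 2.3.3 and Matplotlib 3.10.9 were used, and the overlap and word counts were tested on simulated data.

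Named genes are every member with a start peak in either library, 19 with a known role, the 6 members with most regions away from starts (10 with ties) and the 5 strongest such regions; Cyp2f2, Cyp2w1 and other members were added by ties or as parts of counts. Members, lists and rules were chosen with earlier results of these data known. Alternatives were the shorter peak lists, lists cut to equal length or to the strongest 20000 peaks, other windows, flanks and overlaps, 1 library, and other word lengths and CpG limits. No test was made, since there was 1 group.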

Additional observations from a re-analysis of the deposited data

How the results depend on the processing

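Between other settings of the start window (250 bp to 2000 bp, or the 5′ end alone), the shorter lists, equal numbers of peaks and each library alone, 22 to 28 members had a start peak beside 24 as reported, and 56.6% to 66.2% of all genes. With the strongest 20000 peaks the count was 10, beside 46.1% of all genes, and the median signal of these members was 3.66 instead of 1.70; with 1 library it was 1.49 to 1.51, as weak starts open in 1 library enter. Members with a shared region numbered 28 without a flank, beside 47, and 36 to 65 under the other settings. Regions away from starts numbered 34 with the shorter lists, 26 without a flank, 132 with a flank of 50 kb and 70 to 92 with 1 library, beside 56. Members with mostly repeated words numbered 4 with words of 76 bases and 18 with BLAST copies, beside 10. Of all genes with a CpG ratio under 0.4, 22.5% were open, beside 35.7% under 0.6. The Cyp4f genes with a 3′-end region were 6 or 7 over the last 1 or 2 kb and 7 in each library, alternatives chosen after seeing the data; the share of all genes was 4.84% to 9.03%. No paired analysis was possible because there is 1 group. Depth limits the weakest peaks, and a start without a listed peak may be open in few cells.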

Other observations

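P450 loci that are not annotated as protein-coding were mostly without start peaks. Of 31 such symbols, 30 of them pseudogenes, 2 had a peak within 500 bp of a start in both libraries. Cyp4f41-ps, a transcribed pseudogene next to Cyp4f13, had 5.29 and 3.78, and its start lies within 500 bp of that of Zfp472, a zinc finger gene, so the starts cannot be told apart. Cyp2j15-ps in the Cyp2j cluster had 0.721 and 0.438, with no coding start in reach. The body of 4 pseudogenes held a shared region: these 2, Cyp2a21-ps and Cyp2c52-ps.

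Weak peaks recurred at like distances in related genes. Cyp4a10 and Cyp4a32 each had a shared region about 4 kb upstream, at -4.05 and -3.92 kb, with signals of 0.377 and 0.743, and of 0.431 and 0.461. Both starts have many repeated words (29.3% and 31.2%), and whether reads of 1 gene were placed at the other was not tested.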
